A study of Mus musculus with 3 samples.

Results

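Immediate early genes and heat shock genes were followed in single cells of the mouse hind paw in K/BxN serum transfer arthritis. In this model, autoantibodies in the serum of arthritic K/BxN mice start joint inflammation in the recipient. The 42 genes, of 32285 in the count tables, fall into 4 groups by role. These are 9 AP-1 genes, 12 genes of EGR, KLF and other transcription factors, 14 feedback genes and 7 chaperone genes. Members were matched by gene symbol, and the list was drawn up with earlier results of these data known. All 42 genes were detected in each library.

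There were 3 libraries made with the 10x 3′ kit, 1 for each group. The day 5 stromal library held sorted CD45- cells of paws 5 days after serum. The day 0 stromal library held CD45- cells at steady state. The day 9 myeloid library held CD45+CD11b+Ly6G- cells, so it differs from the stromal libraries in sort, cell types and time at once, and it had no day 0 counterpart. The labels used here give no strain, sex, age or number of mice. Paws of all 3 samples were freed of skin, muscle and tendon and digested for 30 min at 37 °C with collagenase IV and DNase I before sorting. With 1 library per group there is no replicate check, no test was run, and every interval covers counting error only. An effect of arthritis and a difference in handling between the stromal libraries cannot be told apart.

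Immediate early genes are transcribed within minutes of a stimulus, from preformed factors and without new protein synthesis. FOS and JUN proteins pair to form AP-1, which together with EGR and KLF factors turns on later genes. Feedback genes such as the DUSP phosphatases and the RNA-binding protein ZFP36 then end the response. Heat shock genes encode chaperones and are driven mainly by the factor HSF1. Both classes respond to cytokines and growth factors in inflamed tissue, and both are also known to be induced by warm enzymatic dissociation of tissue.

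The sequences upstream of 4 members are shown. Fos is the AP-1 gene with the most UMIs in fibroblast-like cells, Dusp8 was far lower at day 5, and Hspa1a and Hspa1b were the chaperone genes lower at day 5. Each line gives the 250 bases before the transcription start in RefSeq (GRCm38.p6, the same assembly as mm10), read 5′ to 3′ on the gene's strand. Capitals mark the letters TGACG and TATAAA in Fos, TGACGTCA in Dusp8 and GAAGATTC in the Hspa1 pair.
Fos, chr12:85473640-85473889, plus strand: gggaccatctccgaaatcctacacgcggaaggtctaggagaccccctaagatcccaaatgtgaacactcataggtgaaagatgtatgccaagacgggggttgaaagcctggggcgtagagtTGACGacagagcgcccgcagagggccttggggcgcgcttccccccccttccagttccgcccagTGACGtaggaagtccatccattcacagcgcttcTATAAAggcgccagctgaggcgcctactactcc
Dusp8, chr7:142095285-142095534, minus strand: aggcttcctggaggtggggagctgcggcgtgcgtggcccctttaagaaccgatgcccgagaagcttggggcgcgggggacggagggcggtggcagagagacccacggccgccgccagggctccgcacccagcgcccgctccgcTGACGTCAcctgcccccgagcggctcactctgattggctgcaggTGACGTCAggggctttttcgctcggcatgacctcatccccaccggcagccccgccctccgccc
Hspa1a, chr17:34972157-34972406, minus strand: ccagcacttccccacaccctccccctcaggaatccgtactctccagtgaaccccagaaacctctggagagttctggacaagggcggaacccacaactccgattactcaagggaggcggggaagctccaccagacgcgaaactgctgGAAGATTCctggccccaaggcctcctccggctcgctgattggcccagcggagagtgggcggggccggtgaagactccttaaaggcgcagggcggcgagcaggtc
Hspa1b, chr17:34959239-34959488, minus strand: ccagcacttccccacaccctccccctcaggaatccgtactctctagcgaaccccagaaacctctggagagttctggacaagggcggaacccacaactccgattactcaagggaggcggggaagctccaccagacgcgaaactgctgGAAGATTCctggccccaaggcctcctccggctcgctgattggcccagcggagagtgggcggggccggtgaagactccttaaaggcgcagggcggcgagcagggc
In the GENCODE annotation of mm10, Fos spans bases 85473890 to 85477273 of chromosome 12 and Dusp8 bases 142079490 to 142095843 of chromosome 7. The Dusp8 window therefore lies inside the GENCODE gene body. Hspa1a spans bases 34969190 to 34972156 and Hspa1b bases 34956436 to 34959238 of chromosome 17. The Hspa1a and Hspa1b windows were identical at 247 of 250 bases. The genes themselves are near-identical copies, so the split of reads between them is uncertain.

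RefSeq windows were found for 34 of the 42 members, 4 of which had more than 1 window. They were searched on both strands beside the windows of all 27025 genes, and a gene was counted when any of its windows held the letters. The heat shock element of 2 units, written GAANNTTC or TTCNNGAA, was in 4 of 5 chaperone genes, 2 of 8 AP-1 genes, 1 of 8 factor genes and 0 of 13 feedback genes. It was in 14.5% of all genes. The longer heat shock element of 3 units was in 0 of 34 members and in 0.514% of all genes. The cyclic AMP response element TGACGTCA was in 4 members, namely Maff, Dusp1, Dusp8 and Btg2, and in 1.77% of all genes. Its shorter form TGACG, which the full element contains, was in 19 members and in 19.8% of all genes. The CArG box, bound by serum response factor, was in Egr2, Dusp5 and Zfp36 and in 1.62% of all genes. The AP-1 site TGANTCA was in 1 member and in 7.82% of all genes, and TATAAA in 6 members and 14.3% of all genes. GGGCGG, the SP1 site, was in 30 members and 35.4% of all genes, and CCAAT in 16 members and 37.5%. A match describes letters only, and a window without one says nothing about the factor.

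The tables held 122224428 unique molecular identifiers (UMIs, each a captured RNA molecule) at day 5, 77842586 at day 0 and 69430907 at day 9. The filtered libraries, in the same order, had 10108, 6912 and 5574 cells. Their median depth was 9107, 9660 and 6398 UMIs. The 42 genes took 2.68% of UMIs at day 5, 2.33% at day 0 and 1.67% at day 9. Library pairs shared 22 to 35 cell barcodes. Clusters were made without the members and without the other gene lists below, and a name marked "like" rests on RNA markers alone. Levels are the UMIs of a gene summed over the cells of a class and scaled by all UMIs of that class (CPM). They compare 1 gene between groups, not different genes with each other.

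In fibroblast-like cells pooled over sub-clusters, the immediate early genes stood at close levels on both days, while a small set differed. There were 5629 such cells at day 5 and 3312 at day 0, and all 8 fibroblast markers were detected on both days. At a size of 1.5-fold with at least 20 UMIs over both days, 4 of 42 members were higher at day 5 and 3 were lower. Over all 14750 genes with that many UMIs, 9.06% were higher and 8.21% were lower, so the members' counts lie near these shares. Among the 6002 genes with at least 20 CPM on the higher day the shares were smaller, at 3.28% higher and 3.80% lower. Of the 7 members past the size, Ier3, Hsph1, Dusp8, Hspa1a and Hspa1b reached that level. The summed AP-1 level was 13292 CPM at day 5 against 12603 CPM at day 0, a ratio of 1.05 (95% interval 1.05 to 1.06). The factor group summed to 5666 and 5610 CPM, the feedback group to 6427 and 6045 CPM, and the chaperones to 1985 and 1873 CPM, at day 5 and day 0 in each case. On the log2 scale the median day 5 over day 0 ratio was 0.09 for AP-1, 0.04 for the factors, 0.10 for feedback and 0.22 for chaperone genes, beside -0.00 for all genes.

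With cells pooled, the AP-1 genes with the most UMIs hardly differed. Fos was at 4144 CPM at day 5 against 3887 CPM at day 0, a ratio of 1.07 (1.06 to 1.07). Jun was at 2865 CPM at day 5 against 2616 CPM at day 0, a ratio of 1.10 (1.09 to 1.10). Fosb, a FOS family partner of JUN proteins, was at 1927 CPM at day 5 against 1526 CPM at day 0, a ratio of 1.26. Junb, Jund, Fosl2 and Maff had ratios from 0.88 to 1.07. Atf3, a stress-induced member of the ATF family, was at 296 CPM at day 5 against 407 CPM at day 0. Fosl1 was scarce, with 250 UMIs (4.08 CPM) at day 5 and 48 UMIs (1.38 CPM) at day 0, a ratio of 2.95 (2.16 to 4.11). Without the 1404 cells of the sub-cluster led by Saa3, its log2 ratio was 0.04.

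Among the factors, Egr1, a zinc finger protein and a classic early response gene, was at 1746 CPM at day 5 against 1493 CPM at day 0, a ratio of 1.17 (1.16 to 1.18). Klf4 was at 1234 CPM at day 5 against 1534 CPM at day 0, 1.24-fold lower (1.23 to 1.26). Cebpb and Cebpd, factors of acute-phase genes, had ratios of 1.31 and 1.22. The other 8 factors had ratios from 0.81 to 1.41, with Nr4a3 lowest and Egr3 highest. None of the 12 reached 1.5-fold.

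Feedback genes included the largest differences in both directions. Ier3, an early gene linked to cell survival, was at 550.5 CPM at day 5 against 327 CPM at day 0, a ratio of 1.68 (1.65 to 1.72). Dusp8, a phosphatase that switches off the JNK and p38 kinases, was at 9.51 CPM at day 5 against 25.4 CPM at day 0. That is 2.67-fold lower (2.40 to 2.97) on a low level. Dusp2 had 23 UMIs at day 5 and 3 at day 0, a ratio of 4.35 with an interval of 1.31 to 22.6. Zfp36, whose protein speeds the decay of cytokine mRNA, was at 944 CPM at day 5 against 835 CPM at day 0. Its relative Zfp36l1 was at 1168 CPM at day 5 against 1357 CPM at day 0. Dusp1 was at 862 CPM at day 5 against 825 CPM at day 0, a ratio of 1.04 (1.03 to 1.06). The other 8 feedback genes had ratios from 0.99 for Socs3, the inhibitor of JAK-STAT signalling, to 1.46 for Dusp5.

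The chaperones split. Hspa1a, the stress-inducible HSP70 gene, was at 125 CPM at day 5 against 194 CPM at day 0, 1.56-fold lower (1.51 to 1.61). Its copy Hspa1b was at 130 CPM at day 5 against 202 CPM at day 0, 1.55-fold lower, with a ratio of 0.65 (0.63 to 0.67). Both were lower at day 5 in 16 of 16 alternative settings, and each passed 1.5-fold in 10 of them. Hsph1, which encodes the HSP110 partner of HSP70, was higher, at 34.4 CPM at day 5 against 19.4 CPM at day 0, a ratio of 1.77 (1.62 to 1.94). Hspa8, the constitutive HSP70 gene, was at 1107 CPM at day 5 against 949 CPM at day 0, and Hsp90aa1 at 363 CPM at day 5 against 304 CPM at day 0. Hspb1 had a ratio of 1.18 and the co-chaperone Dnajb1 of 1.00.

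**Figure D1:**
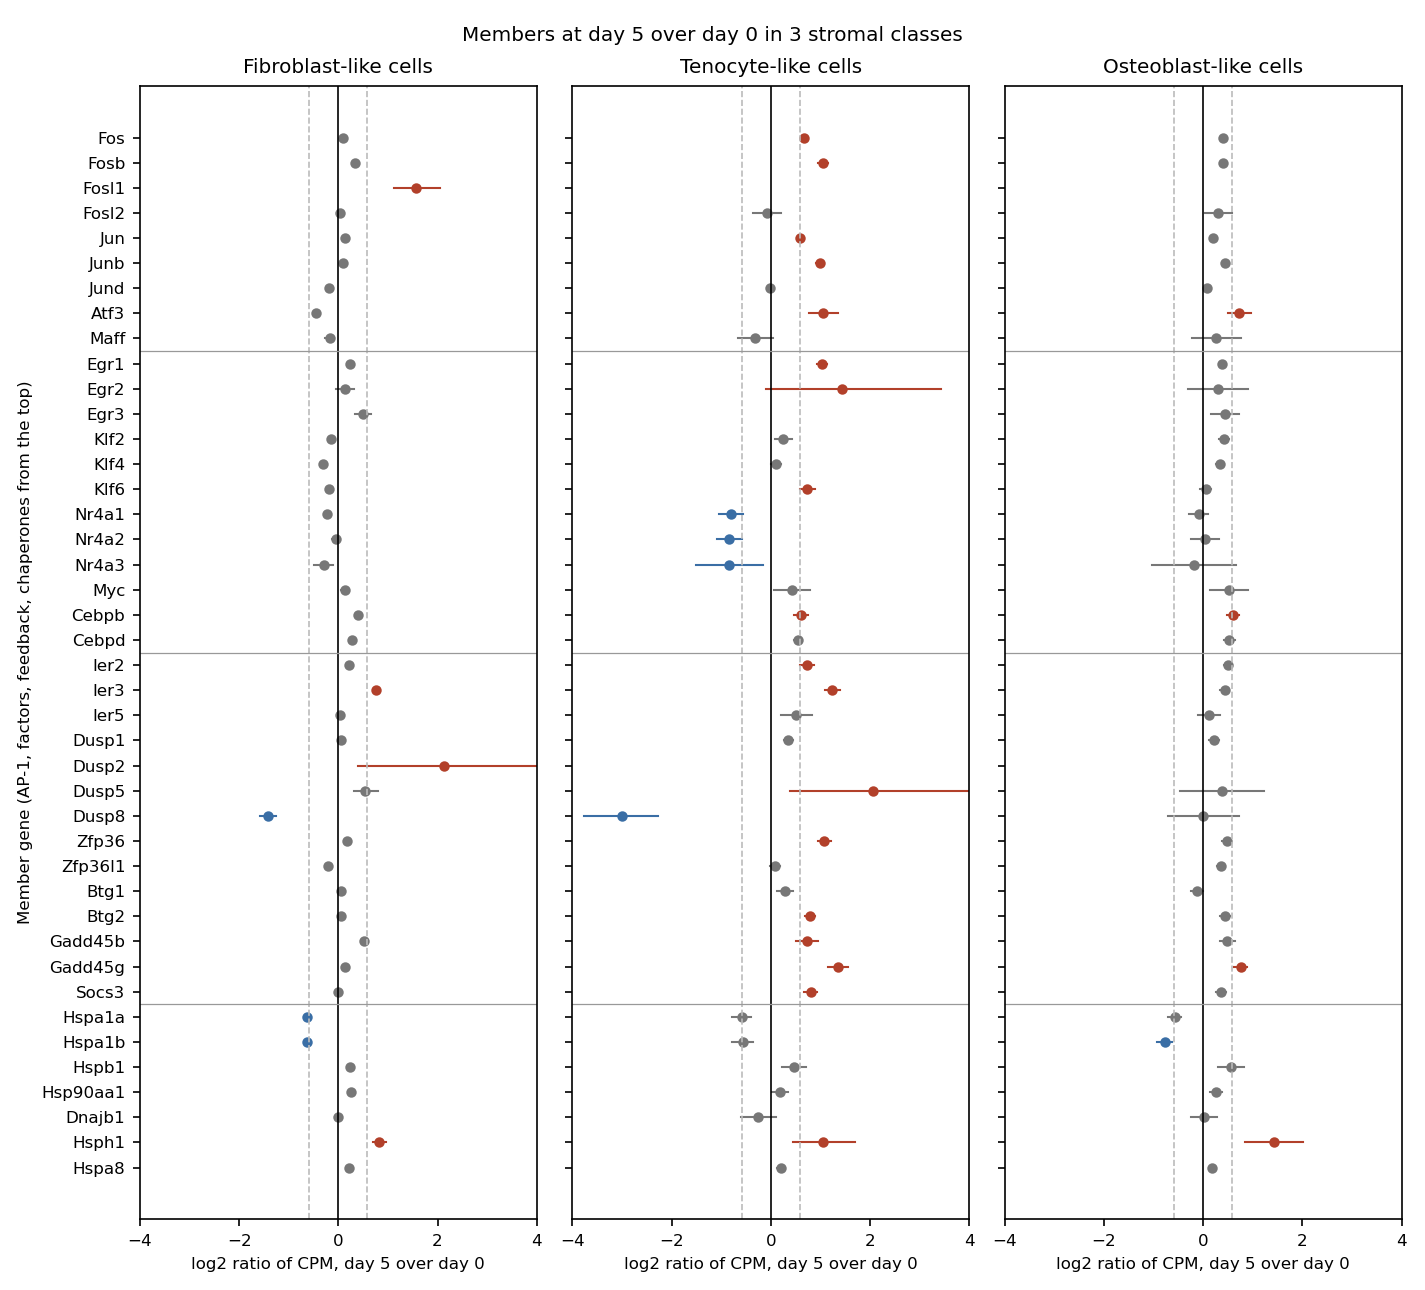
Each point is the log2 ratio of a member's CPM, day 5 over day 0, in fibroblast-like, tenocyte-like or osteoblast-like cells, with its 95% counting interval. Dashed lines mark 1.5-fold, red points are past it upwards and blue points downwards. Red points number 4 of 42 members in fibroblast-like, 18 of 39 in tenocyte-like and 4 of 40 in osteoblast-like cells. Members under 20 UMIs over both days have no point.

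The fibroblast-like class was a mixture that differed between days. A cluster led by Saa3 held 1340 cells at day 5 and 18 at day 0, and a cluster led by Dpep1 and Inmt held 1085 and 52. A cluster led by Efhd1 and Pi16 held 455 cells at day 5 and 1058 at day 0. Cluster 12, led by Atf3, Il6 and Tnfaip6, held 149 cells at day 5 and 440 at day 0. A cluster that sits almost wholly in 1 library may be that library and not a cell type. Within the 8 fibroblast sub-clusters that held 50 or more cells of both libraries, the summed AP-1 level was higher at day 5 in 8 of 8. The same held for the factor and the feedback sums, and the chaperone sum was higher in 5 of 8. Hspa1a and Hspa1b were lower in 8 of 8 sub-clusters. Sub-clusters under 50 cells in either library were left out of these counts. The one led by Saa3, with 1384 cells at day 5 and 20 at day 0, had AP-1 at 10486 CPM at day 5 against 12468 CPM at day 0. One led by Ifit1 (36 and 13 cells) was at 13431 and 16100 CPM. One led by Mfap4 (188 and 28 cells) was at 10877 and 7071 CPM. A further setting weighted the 8 sub-clusters with 50 or more cells of both libraries equally. It left the others out, the one led by Saa3 included, so it changed both weights and cells. The median log2 ratio was then 0.40 in place of 0.09 for AP-1 genes and 0.46 in place of 0.10 for feedback genes. In that setting 9 members passed 1.5-fold upwards. These were Fosb, Fosl1, Egr1, Egr3, Dusp2, Dusp5, Zfp36, Gadd45b and Hsph1. The share of all genes past that size in this setting was not set beside the count. The same setting also changed the sign of 9 members from lower to higher at day 5. These were Jund, Atf3, Maff, Klf2, Klf4, Klf6, Zfp36l1, Socs3 and Dnajb1, with log2 ratios of -0.46 to -0.00 with cells pooled and 0.04 to 0.51 with equal weights.

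Cells were thinned to 2000 UMIs to compare them at 1 depth, which kept 5581 fibroblast-like cells at day 5 and 3284 at day 0. The median cell then had 23 AP-1 UMIs at day 5 and 20 at day 0. Cells with 0 AP-1 UMIs numbered 24 at day 5 (0.43%, 0.28% to 0.64%) and 14 at day 0 (0.43%, 0.23% to 0.71%). AP-1 RNA was thus found in nearly every fibroblast-like cell of both libraries, the steady-state one included. Free RNA in droplets can give such UMIs to a cell that does not make them, no class lacked AP-1 RNA to set its level, and its part was not tested.

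In tenocyte-like cells, many immediate early genes were higher at day 5, unlike in the pooled fibroblast-like class. Most fibroblast sub-clusters, taken singly, also had higher AP-1 sums at day 5. The one led by Inmt (1202 and 213 cells) had AP-1 at 11256 CPM at day 5 against 6702 CPM at day 0. The one led by Hmcn2 (269 and 114 cells) was at 19063 and 12855 CPM. Only those led by Saa3 and Ifit1, with 20 and 13 cells at day 0, were lower. Higher AP-1 sums were thus not particular to tenocyte-like cells. There were 585 tenocyte-like cells at day 5 and 233 at day 0, although tendons had been taken off. Of tenocyte markers, 8 of 8 were detected on both days. Of 39 members with enough UMIs, 18 were at least 1.5-fold higher at day 5 and 4 were lower. Over the 10654 genes with that many UMIs, 13% were higher and 6.77% were lower. At a coarser clustering the class held 1315 cells at day 5 and 1371 at day 0. There 11 members were higher, 10 of them shared, with no share of all genes set beside this count. Among those lost were Fos and Jun, which passed 1.5-fold in 9 and 7 of 12 alternative settings, with a log2 ratio above 0 in each of the 12. By role, 5 of 8 AP-1 genes, 4 of 11 factors, 8 of 13 feedback genes and 1 of 7 chaperones were higher. The median log2 ratios were 0.63 for AP-1, 0.43 for the factors, 0.73 for feedback and 0.19 for chaperone genes, beside 0.05 for all genes.

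The summed AP-1 level in tenocyte-like cells was 8485 CPM at day 5 against 5554 CPM at day 0, a ratio of 1.53 (1.497 to 1.56). Fos was at 2397 CPM at day 5 against 1508 CPM at day 0, a ratio of 1.59 (1.53 to 1.65). Fosb was at 1084 and 522 CPM, Jun at 2021 and 1336 CPM, and Junb at 1537 and 773 CPM, at day 5 and day 0 in each case. These 4 genes stood higher, whereas Jund was at 1221 CPM at day 5 against 1234 CPM at day 0, Fosl2 at 70.6 against 74.4 CPM and Maff at 40.9 against 50.8 CPM. Atf3 was at 113 CPM at day 5 against 54.6 CPM at day 0, a ratio of 2.08 (1.70 to 2.56). At the coarser clustering its log2 ratio was 0.02.

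Among the factors in tenocyte-like cells, Egr1 was at 951 CPM at day 5 against 463 CPM at day 0, a ratio of 2.05 (1.92 to 2.20). Klf6 was at 354 CPM at day 5 against 212 CPM at day 0, and Cebpb at 406 CPM at day 5 against 266 CPM at day 0. The NR4A genes, which encode orphan nuclear receptors, were lower. Nr4a1 was at 69.3 CPM at day 5 against 121 CPM at day 0, 1.74-fold lower (1.48 to 2.06). Nr4a2 was at 62.0 CPM at day 5 against 111 CPM at day 0, 1.79-fold lower (1.51 to 2.13). Nr4a3 had 45 UMIs at day 5 and 35 at day 0, 1.79-fold lower by CPM (1.12 to 2.85). Egr2 passed the size with only 25 UMIs at day 5 and 4 at day 0, and its interval spanned 0.94 to 10.7.

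The feedback sum in tenocyte-like cells was 4883 CPM at day 5 against 3138 CPM at day 0, a ratio of 1.56 (1.51 to 1.60). Gadd45g, a stress gene of the growth arrest family, was at 292 CPM at day 5 against 114 CPM at day 0, a ratio of 2.57 (2.24 to 2.95). Ier3 was at 475 CPM at day 5 against 201 CPM at day 0, a ratio of 2.36 (2.13 to 2.62). Zfp36 was at 527 CPM at day 5 against 249 CPM at day 0, a ratio of 2.11 (1.92 to 2.32). Ier2, Btg2, Gadd45b and Socs3 had ratios between 1.66 and 1.74, and Dusp5 had 29 UMIs at day 5 and 3 at day 0. Dusp8 stood apart, with 21 UMIs (4.29 CPM) at day 5 and 73 UMIs (34.4 CPM) at day 0, a ratio of 0.125 (0.073 to 0.205). The phosphatases did not share a direction, as Dusp1 was at 793 CPM at day 5 against 620 CPM at day 0.

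Chaperones in tenocyte-like cells summed to 1467 CPM at day 5 against 1394 CPM at day 0. Hspa1a was at 117 CPM at day 5 against 175 CPM at day 0, a ratio of 0.667 (0.584 to 0.762). Hspa1b was at 95.3 CPM at day 5 against 141 CPM at day 0, a ratio of 0.675 (0.583 to 0.783). Both lay just under the 1.5-fold size. Hsph1 was at 27.2 CPM at day 5 against 13.2 CPM at day 0, a ratio of 2.06 (1.37 to 3.22).

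In osteoblast-like cells the differences were smaller. There were 564 cells at day 5 and 520 at day 0, with 8 of 8 osteoblast markers detected on both days. Of 40 members, 4 were at least 1.5-fold higher at day 5 and 1 was lower, beside 7.94% higher and 5.42% lower among 11621 genes. The higher ones were Atf3, at 88.7 CPM at day 5 against 53.6 CPM at day 0, Cebpb at 279 and 184 CPM, Gadd45g at 278 and 165 CPM and Hsph1 at 20.4 and 7.63 CPM. Hspa1b was at 121 CPM at day 5 against 207 CPM at day 0, 1.71-fold lower (1.54 to 1.90). Fos was at 2865 CPM at day 5 against 2180 CPM at day 0, a ratio of 1.31, and Egr1 at 1011 CPM at day 5 against 781 CPM at day 0. The sums were 1.24-fold higher for AP-1, 1.28-fold for the factors and 1.30-fold for feedback genes, and 1.01-fold for chaperones. The median log2 ratio was 0.35 for AP-1 genes and 0.03 for all genes. Dusp8 had 37 UMIs at day 5 and 34 at day 0, a ratio of 1.00 (0.61 to 1.64) in this class.

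An unnamed cluster led by Cytl1, Clu and Slurp1 (cluster 1, 270 cells at day 5 and 313 at day 0) had 11 of 41 members higher and 6 lower, beside 11.5% and 11.2% of 10113 genes. Cebpd was at 803 CPM at day 5 against 278 CPM at day 0, Gadd45g at 402 and 178 CPM, and Dusp8 at 16.4 and 68.5 CPM. Its AP-1 sum was 13057 CPM at day 5 against 10040 CPM at day 0. Blood endothelial-like cells, 53 at day 5 and 83 at day 0, had lower sums at day 5. Their AP-1 sum was 7841 CPM at day 5 against 10036 CPM at day 0, the factor sum 3160 and 4655 CPM and the feedback sum 4204 and 6391 CPM. Of 38 members, 4 were higher and 11 lower, beside 20.6% and 22.6% of 7555 genes. The fibroblast transcript Dcn was at 2627 CPM in these cells at day 5 and 193 CPM at day 0, with median depths of 11463 and 7088 UMIs per cell. Its part in the result was not tested.

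Across the 18 stromal clusters that held 50 or more cells of both libraries, the direction of single members could be counted. Clusters of 1 library pair are not replicates, and the level of 15 clusters used here was chosen after the values were seen. At day 5, 16 of 42 members were higher in at least 15 clusters and 4 were lower. Among 15690 genes, 9.9% were higher and 10.3% were lower in at least 15 clusters. Among the 5764 genes at 20 CPM or more the shares were 13.6% and 20.2%, so the 4 lower members are fewer than that background share. The 16 members were 4 AP-1 genes (Fos, Fosb, Jun, Junb), 3 factors (Egr1, Egr3, Cebpd), 8 feedback genes (Ier2, Ier3, Dusp5, Zfp36, Btg2, Gadd45b, Gadd45g, Socs3) and the chaperone Hsph1. The 4 lower members were Nr4a3, Dusp8, Hspa1a and Hspa1b.

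Fosb was higher at day 5 in 18 of 18 clusters, and Fos in 16. Fos ranged over clusters from 2181 CPM through a median of 4515 CPM to 9606 CPM at day 5, and from 1508 CPM through 3406 CPM to 7110 CPM at day 0. The ranges overlap widely, and Fos differed more between clusters than between days. Hspa1a was lower at day 5 in 18 of 18 clusters. It ranged from 54.3 CPM through a median of 128 CPM to 213 CPM at day 5, and from 115 CPM through 176 CPM to 321 CPM at day 0. Hspa1b was lower in 18 of 18 as well, with a median ratio of 0.64. Dusp8 was lower in 17 of 18 with a median ratio of 0.29, and its relative Dusp1 was higher in 12 of 18. The summed levels were higher at day 5 in 16 clusters for AP-1, 15 for the factors, 17 for feedback genes and 9 for chaperones. Their median ratios were 1.23, 1.15, 1.23 and 0.99 in that order.

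**Figure D2:**
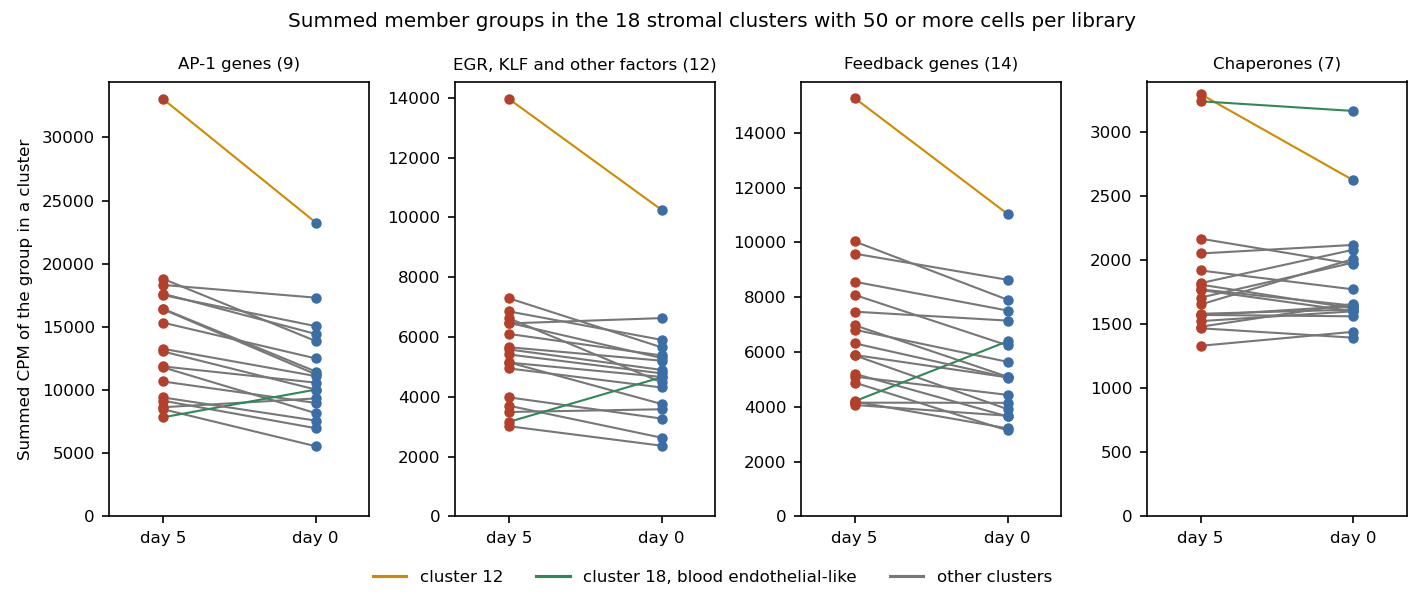
Lines join the summed CPM of each member group at day 5 (left, red) and day 0 (right, blue) in the 18 stromal clusters, on axes that start at 0. AP-1 sums run from 7841 to 33044 CPM at day 5 and from 5554 to 23256 CPM at day 0, with cluster 12 (orange) at the top on both days. The blood endothelial-like cluster (green) is lower at day 5 for AP-1, factor and feedback genes.

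**Figure D3:**
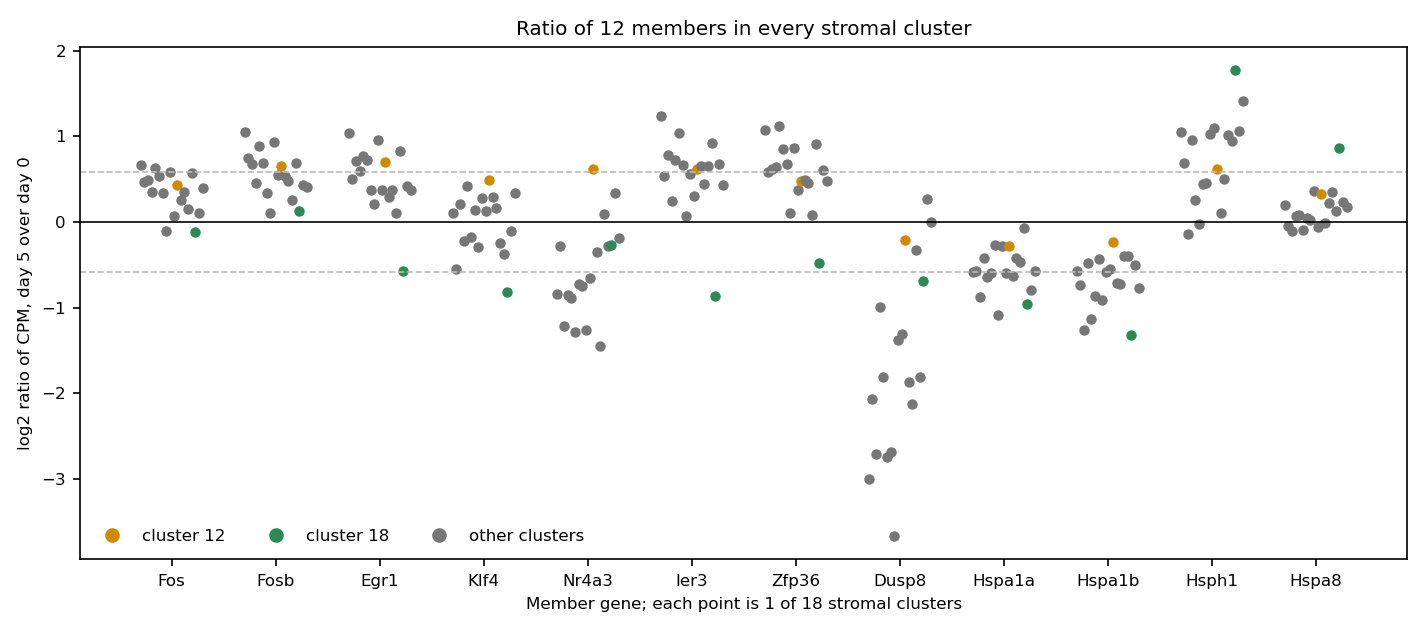
Points are log2 ratios of CPM, day 5 over day 0, of 12 members in each of the 18 stromal clusters, with dashed lines at 1.5-fold. The points of Hspa1a and Hspa1b lie below 0 in 18 of 18 clusters and those of Fosb above 0 in 18 of 18, while Dusp8 spreads widest.

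Cluster 12 was the high point of the immediate early program in the stroma. Its leading genes were Atf3, Il6, Tnfaip6, Rrad, Has1, Sbno2, Casp4, C4b, Cxcl10 and Irf1, and the members had been left out of the clustering. It held 149 of 10108 cells at day 5 (1.47%, 1.25% to 1.73%) and 440 of 6912 cells at day 0 (6.37%, 5.80% to 6.97%). Of fibroblast-like cells that was 2.65% at day 5 and 13.3% at day 0, so this cluster was a larger share of the steady-state library. Within the cluster, levels were higher at day 5. The AP-1 sum was 33044 CPM at day 5 against 23256 CPM at day 0, and the factor sum 13965 and 10250 CPM. Fos was at 9606 CPM at day 5 against 7110 CPM at day 0, Egr1 at 5463 and 3374 CPM, and Zfp36 at 3279 and 2349 CPM.

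The chaperones of cluster 12 summed to 3293 CPM at day 5 against 2620 CPM at day 0, but Hspa1a was at 136 CPM at day 5 against 166 CPM at day 0, inside its range over other clusters. Its cells had medians of 9252 UMIs and 2.74% mitochondrial UMIs at day 5, and 9739 UMIs and 3.13% at day 0, beside 3.35% and 3.38% over all cells of the libraries. Without cluster 12, 8 members of the fibroblast-like class passed 1.5-fold upwards in place of 4. The added ones were Egr3, Cebpd, Dusp5 and Gadd45b. The share of all genes past that size without cluster 12 was not set beside this count.

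The immediate early groups varied together, and the chaperones followed them less closely. Over 18 points, the fibroblast sub-clusters of each library with at least 50 cells, the summed AP-1 level had a Pearson r of 0.95 with the factors, 0.91 with feedback genes and 0.60 with chaperones. Spearman's rho was 0.80, 0.85 and 0.41 for the same pairs. Without the 2 points of the sub-cluster with the most AP-1 RNA, left out after the values were seen, Pearson's r was 0.91, 0.83 and 0.14. The points share 2 libraries, so these values are a description, and that with the chaperones rests on this sub-cluster. Over thinned single cells, Spearman's rho with AP-1 was 0.75 for factors, 0.77 for feedback genes and 0.22 for chaperones in 5581 cells at day 5. It was 0.75, 0.77 and 0.32 in 3284 cells at day 0. Among members, the log2 levels over sub-clusters were most like the AP-1 sum for Fos (r 0.98), Egr1 (0.97), Zfp36 (0.97), Fosb (0.95) and Jun (0.94). Fos, Fosb and Jun are terms of that sum, and against the sum of the other AP-1 genes their r was 0.95, 0.93 and 0.90. At the other end stood Hspa1a (-0.04), Hspb1 (-0.17) and Hspa1b (-0.28). The chaperones were divided, as Dnajb1 (0.69), Hsp90aa1 (0.62) and Hspa8 (0.61) lay near Ier2 (0.68) and Cebpb (0.65). Of 2793 genes ranked, the 10 non-members most like the AP-1 sum were Ripk1 (0.92), Ccnl1 (0.90), Irf1 (0.89), Kdm6b (0.89), Nfkbiz (0.88), Jmjd1c (0.84), Coq10b (0.84), Litaf (0.82), Birc3 (0.82) and H2-Q4 (0.82). The values of single genes include the 2 points of the sub-cluster with the most AP-1 RNA, and none without them is given. Irf1 is also among the 10 leading genes of that sub-cluster.

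Fibroblast-like cells with much AP-1 RNA also carried more RNA of early genes outside the list. At day 5, the 1431 cells with the most AP-1 UMIs had the NF-kB inhibitor Nfkbia at 910 CPM, against 241 CPM in the 1416 cells with the fewest. At day 0 the values were 954 CPM in the 872 cells with the most and 157 CPM in the 824 cells with the fewest. Ppp1r15a, which ends the block of protein synthesis under stress, was at 475 and 88.6 CPM in the same cells of day 5, and at 479 and 104 CPM in those of day 0. The glycolytic gene Gapdh was at 486 CPM in the cells with the most AP-1 UMIs and 668 CPM in those with the fewest at day 5. AP-1 RNA was not concentrated in cells with a high mitochondrial share. It summed to 11799 CPM in cells with 6% to 10% mitochondrial UMIs and 15723 CPM in cells below 2% at day 5, and to 10587 and 17223 CPM at day 0.

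Related lists in fibroblast-like cells, chosen with earlier results of these data known, differed in their counts. Over all genes, 9.06% were at least 1.5-fold higher at day 5 and 8.21% lower. Of 25 other immediate early genes, 0 were at least 1.5-fold higher at day 5 and 2 were lower. Per1, a clock gene also known as an early gene, was at 32.2 CPM at day 5 against 51.1 CPM at day 0. Of 8 glucocorticoid targets, 4 were higher and 1 lower, with a median log2 ratio of 0.52. The metallothionein genes Mt2 and Mt1, which also respond to metals and oxidative stress, were at 2797 and 6120 CPM at day 5 and 644 and 2276 CPM at day 0. Tsc22d3, the glucocorticoid-induced leucine zipper, was at 252 CPM at day 5 against 159 CPM at day 0.

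Of 12 genes of the unfolded protein response, 4 were higher in fibroblast-like cells, with a median of 0.49. The shares over all genes were again 9.06% higher and 8.21% lower, for this and the next lists. Hspa5, the chaperone of the endoplasmic reticulum, was at 906 CPM at day 5 against 537 CPM at day 0, a ratio of 1.69 (1.66 to 1.71). Sdf2l1 was at 56.2 CPM at day 5 against 34.5 CPM at day 0, and Dnajb9 at 76.2 and 49.5 CPM. Of 19 other chaperones 3 were higher, and the mitochondrial chaperone gene Hspd1 was at 120 CPM at day 5 against 72.6 CPM at day 0. Of 10 NF-kB feedback genes 4 were higher (median 0.48), and of 9 MAP kinase feedback genes 4 were lower (median -0.40), each of these 8 below 50 CPM.

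In tenocyte-like cells the glucocorticoid targets had the highest median of these 6 lists, at 1.16, with 6 of 8 higher. Over all genes in this class, 13% were higher and 6.77% lower. Tsc22d3 was at 627 CPM at day 5 against 223 CPM at day 0, and Sgk1 at 306 CPM at day 5 against 173 CPM at day 0. Mt2 was at 1298 CPM at day 5 against 371 CPM at day 0, and Mt1 at 3700 and 1267 CPM. The NF-kB feedback list had 5 of 10 higher (median 0.59), led by Nfkbiz at 72.4 CPM at day 5 against 24.0 CPM at day 0. The MAP kinase feedback list had 3 of 7 lower (median -0.45), among them Spry1, an inhibitor of growth factor signalling, at 80.6 CPM at day 5 against 164 CPM at day 0. Of 24 other immediate early genes 2 were higher and 3 lower. Ccn2, a target of YAP and TGF-beta signalling, was at 303 CPM at day 5 against 659 CPM at day 0. Of the unfolded protein response 0 of 10 genes were higher and 1 lower (median -0.18), and of the other chaperones 3 of 19 were higher (median 0.19). In osteoblast-like cells Mt2 was at 331 CPM at day 5 against 175 CPM at day 0, Hspd1 at 121 and 76.5 CPM, and Ccn2 at 439 and 672 CPM.

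In the day 9 myeloid library the members were set side by side between classes. Monocyte-like cells (426) had 16 of 42 members at least 1.5-fold higher than macrophage-like cells (1493) and 6 lower. Over 10592 genes, 11.1% were higher and 34.3% lower, and the median log2 ratio of all genes was -0.27. TMM scaling raised these log2 ratios by 0.23 and median-of-ratios scaling by 0.25. The median log2 ratio was 0.42 for AP-1, 0.19 for the factors, 0.63 for feedback and -0.48 for chaperone genes. Of these, 3 of 9 AP-1, 5 of 12 factor, 8 of 14 feedback and 0 of 7 chaperone genes were higher. With TMM scaling 20 members were higher and 5 lower, and 5 members changed sign to higher in monocyte-like cells. These were Jund, Maff, Nr4a3, Dnajb1 and Hspa8, with log2 ratios of 0.03 to 0.21. TMM scaling shifts all genes alike, and their shares past 1.5-fold under it were not set beside the members' counts. Neutrophil markers were detected in both classes, 4 of 7 in monocyte-like cells with a sum of 1946 CPM and 3 of 7 in macrophage-like cells with 220 CPM, and their part was not tested.

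Cebpb, a factor of myeloid differentiation and of inflammatory genes, was at 2493 CPM in monocyte-like and 866 CPM in macrophage-like cells, a ratio of 2.88 (2.79 to 2.98). Ier3 was at 1615 CPM in monocyte-like and 597 CPM in macrophage-like cells. Nr4a1 was at 586 and 233 CPM, and Zfp36 at 2361 and 1460 CPM, in the same order of classes. Fos was at 2373 CPM in monocyte-like and 2369 CPM in macrophage-like cells, a ratio of 1.00 (0.97 to 1.03), or a log2 ratio of 0.23 with TMM scaling. Dusp1 was at 2306 CPM in monocyte-like and 2211 CPM in macrophage-like cells. The lower members were Klf2, at 265 CPM in monocyte-like and 436 CPM in macrophage-like cells, Myc, Hsph1, Hspa1b, Dusp8 and Hspb1. Hspa1b was at 54.1 CPM in monocyte-like and 114 CPM in macrophage-like cells, 2.11-fold lower (1.76 to 2.55). Dusp8 had 1 UMI and Hspb1 0 UMIs in monocyte-like cells, against 73 and 43 in macrophage-like cells.

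The related lists were counted between these classes as well. Over all genes, 11.1% were higher and 34.3% lower, with a median log2 ratio below 0 as given above. Of 24 other immediate early genes, 11 were higher in monocyte-like cells and 4 lower, with a median log2 ratio of 0.49. Of 17 other chaperones 0 were higher and 9 lower (median -0.66), and of 11 genes of the unfolded protein response 0 were higher and 6 lower (median -0.66).

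Over the 9 named classes with at least 50 cells, the summed AP-1 level was highest in monocyte-like cells (8261 CPM) and lowest in cycling (2909 CPM) and osteoclast-like cells (3083 CPM). Between them lay macrophage-like cells at 6940 CPM. The 60 blood endothelial-like cells, a type that a sort for CD45 and CD11b should remove, were at 7757 CPM. They carried 6 of 7 neutrophil markers at a sum of 29223 CPM beside 7 of 7 endothelial markers at 2344 CPM, and the part of these transcripts in their AP-1 level was not tested. The feedback sum spanned 11245 CPM in monocyte-like to 1154 CPM in osteoclast-like cells, and the factor sum 6000 to 792 CPM in the same classes. Chaperones had another order, highest in cycling cells (4041 CPM) and lowest in mature dendritic-like cells (2211 CPM). The low classes were also the deepest, with medians of 28240 UMIs in osteoclast-like and 22149 in cycling cells, against 5208 in monocyte-like cells. The part of depth was not tested.

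By gene, Junb ran from 2431 CPM in monocyte-like to 653 CPM in osteoclast-like cells, and Fos from 2373 CPM in monocyte-like to 805 CPM in mature dendritic-like cells. Dusp1 ran from 2306 to 91.5 CPM and Zfp36 from 2361 to 417 CPM, each from monocyte-like to osteoclast-like cells. Cebpb was lowest in osteoclast-like cells at 63.3 CPM. Klf6 was highest in mature dendritic-like cells at 1863 CPM and lowest in osteoclast-like cells at 311 CPM. Mature dendritic-like cells, marked by Ccr7 and Fscn1, also had the most Nr4a3 (768 CPM), Dusp5 (542 CPM), Gadd45b (728 CPM) and Zfp36l1 (1235 CPM), which were chosen after their values were seen. Hspa8 ran from 2488 CPM in cycling to 1409 CPM in mature dendritic-like cells, and Hsp90aa1 from 1330 CPM in cycling to 323 CPM in monocyte-like cells. Hspb1, a small heat shock gene, was at 203 CPM in the 60 blood endothelial-like cells and at 4.45 CPM or less in the other 8 classes.

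**Figure D4:**
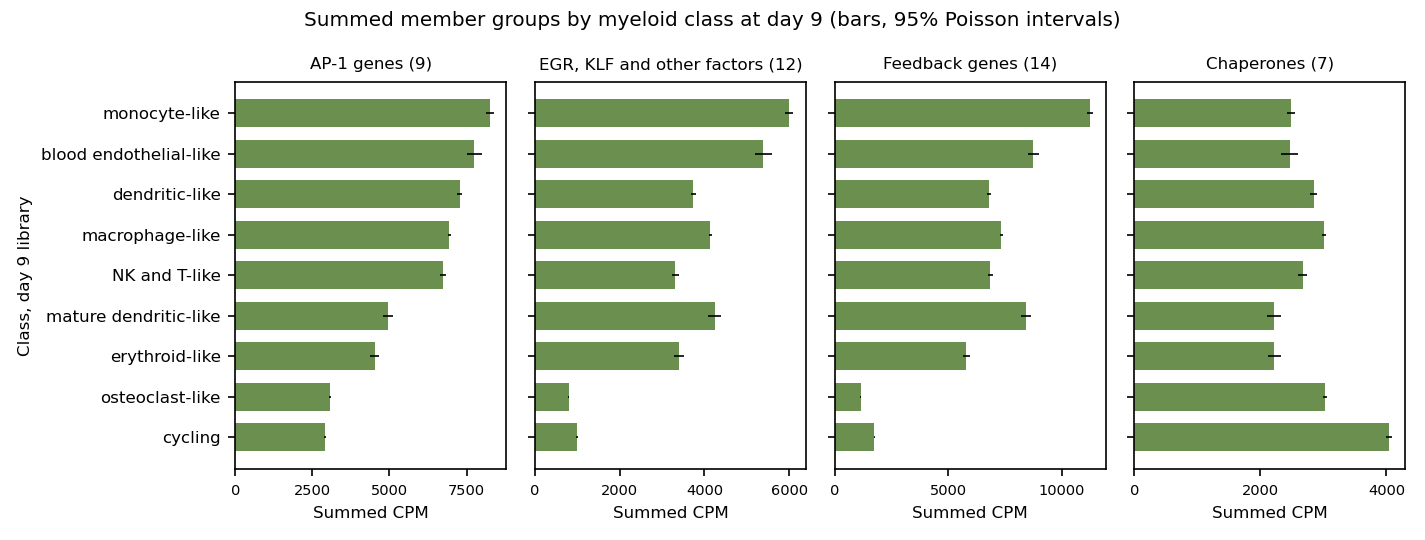
Bars are the summed CPM of each member group in the 9 named classes of the day 9 library with at least 50 cells, with 95% Poisson intervals, on axes that start at 0. Monocyte-like cells are highest for AP-1 (8261 CPM), factor and feedback genes, and cycling cells for chaperones (4041 CPM).

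Macrophage-like cells were themselves mixed. A cluster led by Vcam1, Aif1 and Cxcl13 (603 cells) had an AP-1 sum of 9373 CPM, and a cluster led by Cd163 and Lyve1 (190 cells) one of 4074 CPM. Their chaperone sums were 3319 and 2055 CPM. Among unnamed clusters, one led by the interferon genes Rsad2, Cxcl10 and Slfn4 (464 cells) reached 8656 CPM of AP-1 and 12245 CPM of feedback RNA, and one led by Jdp2 and Tsc22d1 (369 cells) had 3646 CPM of AP-1. The 26 mast cell- and basophil-like cells had 30000 CPM of AP-1 and 29777 CPM of feedback RNA, at a median of 3115 UMIs per cell, a class under 50 cells, singled out after its values were seen. Within 1370 thinned macrophage-like cells, Spearman's rho of AP-1 was 0.59 with the factors, 0.80 with feedback genes and 0.27 with chaperones, as in the stromal cells lowest for chaperones.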

How the data were processed

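Whole-number UMI counts per gene and cell were deposited. Per the file headers the authors produced them with Cell Ranger 6.0.1. The submitters' processing notes name mm10 and Seurat 4.3.0, with no role given for Seurat. A cell needed 500 genes, 1000 UMIs and no more than 10% mitochondrial UMIs. Scrublet called 986, 2 and 1 cells at day 5, day 0 and day 9, too few in the last 2 libraries, so the 1064, 456 and 371 cells with the highest scores were removed (0.8% per 1000 barcodes). With scanpy 1.11.5, 2000 variable genes, 30 components, 15 neighbours and Leiden resolution 1.0 were used, with stromal libraries together and without batch integration. Clusters without at least 3 detected markers (20 CPM), or led by markers of another type, stayed unnamed. The members and lists were chosen with earlier results of these data known. Values are named for members past 1.5-fold with at least 50 CPM in classes of at least 100 cells per library, for the 2 members per role with the most UMIs in fibroblasts, for the 2 per role with the largest range over myeloid classes, for up to 4 genes per other list by the same size, and for the 10 non-members most like AP-1 (log2 with 10 CPM added). Other members are given by range or chosen after their values were seen. Intervals are exact at 95%, Poisson for CPM, conditional binomial for ratios and Clopper-Pearson for shares. edgeR 4.0.16 and DESeq2 1.42.0 gave scaling factors only. Scripts were tested on simulated data. Gene symbols with 2 features (Ddit3, Ccl21a) were left out.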

Additional observations from a re-analysis of the deposited data

How the results depend on the processing

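No replicate could be left out, since each group is 1 library. No paired analysis was possible because no group has more than 1 sample. In fibroblasts, 4 members were at least 1.5-fold higher at day 5, against 8 without cluster 12 (added after seeing the data) and 9 with equal weight of sub-clusters. The equal weight setting also left out sub-clusters under 50 cells in either library, the one led by Saa3 included. The 3 lower members became 1 (Dusp8) with averaged per-cell CPM, and with equal weight the AP-1 median log2 ratio of 0.09 became 0.40 and the feedback median of 0.10 became 0.46. In tenocytes, 18 higher members became 11 at Leiden resolution 0.5, 10 of them shared, and the log2 ratio of Egr2 reversed to -0.41. In osteoblasts, 4 higher members became 2 at resolution 0.5 and 8 with the stricter cell filter (1000 genes, 2000 UMIs, 5% mitochondrial UMIs). The 1 lower member became 2 with the members among the clustering genes, TMM scaling, median-of-ratios scaling, thinned cells (2000 UMIs), averaged per-cell CPM or no count minimum. In monocytes over macrophages, 16 higher members became 9 at resolution 2.0, and 6 lower became 10 with the stricter filter. The cause was not tested. The share of all genes past the size was not set beside these altered counts. The chaperone median of 0.22 became -0.04 without sub-clusters led by Saa3 or a cycling marker, and the factor median of 0.04 ranged from -0.05 with thinned cells to 0.27 with equal weight. Other counts stayed within 1.5 times. At the main clustering, no cluster left unnamed for its leading genes had first been named tenocyte-like. Adding such clusters back therefore left that class at 585 and 233 cells at day 5 and day 0. Whether other unnamed clusters hold tenocyte-like cells was not tested. In other settings the class took in more cells. It held 1315 and 1371 cells at resolution 0.5 and 959 and 1135 at resolution 2.0. Without doublet removal it held 1258 and 1058, and with the members among the clustering genes 816 and 259. Depth limits Fosl1, Egr2, Dusp2, Dusp5 and Dusp8, which rest on few UMIs.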
